A study of Mus musculus with 9 samples.

Results

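Chemokines, interleukins, colony-stimulating factors, members of the TNF superfamily and their receptors were followed in cultured mouse hepatic stellate cells of 3 genotypes. The genes were taken by symbol: those starting with Ccl, Cxcl, Cx3cl, Ccr, Cxcr, Ackr, Il or Csf and a number, those starting with Tnfsf or Tnfrsf, and Lif, Lifr and Osmr. Of the 14020 genes with values, 59 matched. They comprised 11 chemokine ligands, 6 chemokine receptors, 11 interleukins or antagonists, 14 interleukin receptor subunits, 3 genes of the LIF and oncostatin M system, 3 colony-stimulating factors or receptors, 2 TNF superfamily ligands and 8 TNF receptors. The last match, Tnfsf13os, is annotated as an antisense RNA and encodes no cytokine. Of the 59 genes, 33 passed the filter on low values (a normalized count of at least 10 in at least 3 libraries) and were tested, and 26 lay below it.

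RNA sequencing was done on 9 libraries, 3 per group, from stellate cells kept 4 days in serum-containing DMEM with no treatment. The first group is labelled as carrying knock-outs of both Nbr1 and Sqstm1 and is called DKO-labelled here. The second carries the Sqstm1 knock-out (Sqstm1 KO), which it thus shares with the first by label, and the third is wild type (WT). Sqstm1 encodes p62 and Nbr1 encodes a related selective autophagy receptor. Strain, age, sex, whether the knock-outs are in the whole animal or in certain cells, and whether libraries come from separate animals or cultures are not given in the sources used, so p-values measure the spread between these libraries, which may be technical.

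Chemokines are small secreted proteins that bind receptors coupled to G proteins and direct the migration of leukocytes. Interleukins of the IL-6 family act through receptors that share the subunit gp130, encoded by Il6st, and pass the signal to JAK kinases and STAT factors, while IL-1 and TNF receptors recruit adaptors that activate NF-kappa B. Activated stellate cells are a known source of chemokines and of IL-6 in the injured liver, and they respond to IL-13, oncostatin M and TNF.

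The tables held 819677 to 1467793 reads per library. Sqstm1 had normalized counts of 25.8, 51.4 and 59.9 in DKO-labelled libraries and 40.8, 30.8 and 86.8 in Sqstm1 KO, against 223, 255 and 243 in WT. Nbr1 had 81.3, 79.9 and 111 in DKO-labelled libraries, against 75.5, 72.2 and 88.9 in Sqstm1 KO and 106, 92.7 and 106 in WT. Nbr1 thus did not set the DKO-labelled libraries apart, and whether its counted reads lie outside a deleted part is not given in the sources used, so every direction given for this group rests on its label. Sqstm1 KO replicate 3 stood apart, with 12673 genes with reads against 13349 to 13794 in the other libraries, and with correlations of 0.853 and 0.847 with the other replicates of its group. Normalized counts of 4 Y-linked genes summed to 76.5, 102 and 112 in DKO-labelled libraries, to 0 in each Sqstm1 KO library and to 176, 176 and 177 in WT. Genotype and this difference in Y-linked RNA cannot be told apart. Of 15 stellate cell markers, 8 had values, among them Pdgfrb, Acta2 and Col1a1, and they summed to 4460 to 6635 in DKO-labelled libraries, against 5355 to 6208 in Sqstm1 KO and 1790 to 1948 in WT. Most of the sum came from Col1a1, Col1a2 and Col3a1, and the other markers differed in order. Acta2 averaged 382 in DKO-labelled libraries, against 819 in Sqstm1 KO and 84.5 in WT. Hand2 averaged 53.2 in DKO-labelled libraries, against 83.1 in Sqstm1 KO and 19.0 in WT. Pdgfra averaged 234 in DKO-labelled libraries, against 74.1 in Sqstm1 KO and 98.6 in WT. Pdgfrb averaged 66.2 in DKO-labelled libraries, against 52.9 in Sqstm1 KO and 55.9 in WT. Vim averaged 230.4 in DKO-labelled libraries, against 404 in Sqstm1 KO and 364 in WT. The stellate cell markers Lrat, Des, Reln, Rgs5, Ngfr, Lhx2 and Gfap had no values. Of 14 macrophage markers, Cd68, Csf1r, Mpeg1 and Cd14 had values, with sums of 14.3 to 29.3 in DKO-labelled libraries, against 8.68 to 12.3 in Sqstm1 KO and 20.3 to 35.4 in WT. Cd14 alone carried this order, with means of 11.1 in DKO-labelled libraries, against 1.29 in Sqstm1 KO and 17.6 in WT, while Cd68, Csf1r and Mpeg1 averaged 1.77 to 4.28 in every group. Of 13 lymphocyte markers only Cd4 had values, at 0 to 2.87 in DKO-labelled libraries, against 0 to 3.25 in Sqstm1 KO and 0.753 to 8.17 in WT, and none of the 6 neutrophil markers had any. Of 7 mesothelial and portal fibroblast markers, Thy1 and Fbln2 had values. They summed to 299 to 303 in DKO-labelled libraries, against 231 to 427 in Sqstm1 KO and 172 to 224 in WT. Most of this came from Fbln2, with means of 297 in DKO-labelled libraries, against 338 in Sqstm1 KO and 191 in WT. The part of these cells in the results below was not tested, and in such bulk samples fewer cells of a type and less RNA per cell cannot be told apart. Whether reads were counted by strand is not given in the sources used, and 25 of the 59 genes (14 of the 33 tested) overlap an exon on the opposite strand, against 39.7% of all tested genes with an annotation. Reads of such genes and of their partners cannot be told apart, and they are marked as overlapping below.

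The 59 genes took 0.251%, 0.280% and 0.250% of the reads in DKO-labelled libraries, against 0.217%, 0.244% and 0.189% in Sqstm1 KO and 0.159%, 0.173% and 0.184% in WT. All 3 DKO-labelled libraries lay above all others, and all 3 WT libraries below all others. Cxcl12 alone made up 27.2% to 47.2% of the summed values. Per kilobase of exon, the highest mean levels over the 9 libraries were those of Il12rb2 at 100.3 (overlapping Serbp1), Cxcl12 at 94.4, Tnfrsf18 at 54.3 (overlapping Gm16008), Cxcl5 at 38.4, the antisense RNA Tnfsf13os at 36.0 (overlapping Tnfsf13) and Cxcl1 at 30.4 normalized counts per kilobase. By group means of the normalized count, 36 of the 59 genes were highest in DKO-labelled libraries, against 12 in Sqstm1 KO and 11 in WT. Of all 14020 genes, 33.7% were highest in DKO-labelled libraries, against 33.9% in Sqstm1 KO and 32.4% in WT.

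**Figure D1:**
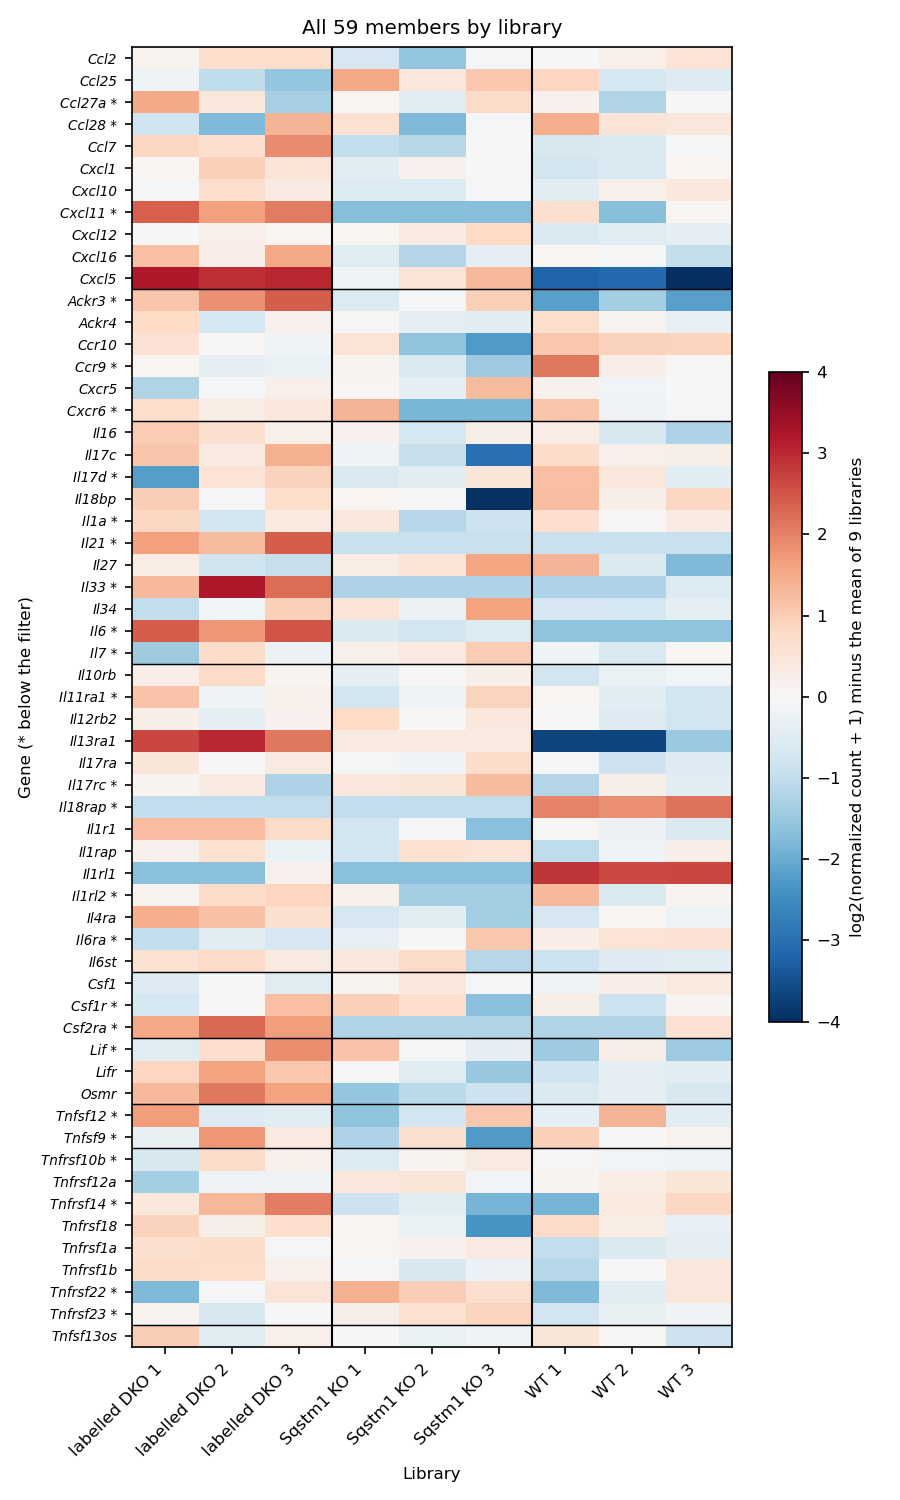
Each row is one of the 59 genes in blocks of ligands and receptors, each column a library, and the colour gives log2(normalized count + 1) minus the gene's mean over the 9 libraries, with the scale ending at -4 and 4; an asterisk marks the 26 genes below the filter. Cxcl5, Il13ra1, Il6, Il33 and Osmr are red in the 3 labelled DKO columns, and Il1rl1 and Il18rap are red in the 3 WT columns.

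Between the DKO-labelled and Sqstm1 KO libraries, 7 of the 33 tested genes rose and 0 fell. The 7 were the cytokine receptor genes Osmr, Lifr, Il1r1, Il13ra1 and Il4ra and the chemokine genes Cxcl5 and Ccl7. Il4ra entered the test only through its DKO-labelled values, and 6 genes rose without it. Of all 10118 tested genes, 4.42% rose and 1.51% fell in this comparison, 5.93% in either direction. Tests used the moderated linear model of limma on log2(normalized count + 1), p-values were adjusted by Benjamini-Hochberg over all tested genes, and a gene is called when its adjusted p is under 0.05. At an unadjusted p under 0.05 by limma, 13 of the genes were higher and 1 was lower, where 1905 of all 10118 tested genes passed in either direction. The quasi-likelihood test of edgeR on the recovered reads called 8 higher and 0 lower, and DESeq2 called 9 higher and 0 lower. The median log2 fold change was 0.61 over the 33 genes and -0.01 over all tested genes. Without DKO-labelled replicate 1 the count of higher genes was 4, and without DKO-labelled replicate 3 it was 3.

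Between the DKO-labelled and WT libraries, 4 of the 33 rose (Osmr, Lifr, Cxcl5 and Il13ra1) and Il1rl1 fell, where 4.11% of all tested genes rose and 2.31% fell, 6.42% in all. The median log2 fold change was 0.56, against -0.02 over all tested genes. Without Sqstm1 KO replicate 3, which enters through the shared estimate of the spread, the count of higher genes was 9, and without WT replicate 2 or WT replicate 3 the count of lower genes was 0. Between Sqstm1 KO and WT, Cxcl5 and Il13ra1 rose and Il1rl1 fell, where 2.43% of all tested genes rose and 3.18% fell, 5.61% in all. The median log2 fold change there was -0.01, equal at this precision to that over all tested genes, and without Sqstm1 KO replicate 1 the count of lower genes was 2. The comparisons share libraries, so their counts are not independent.

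**Figure D2:**
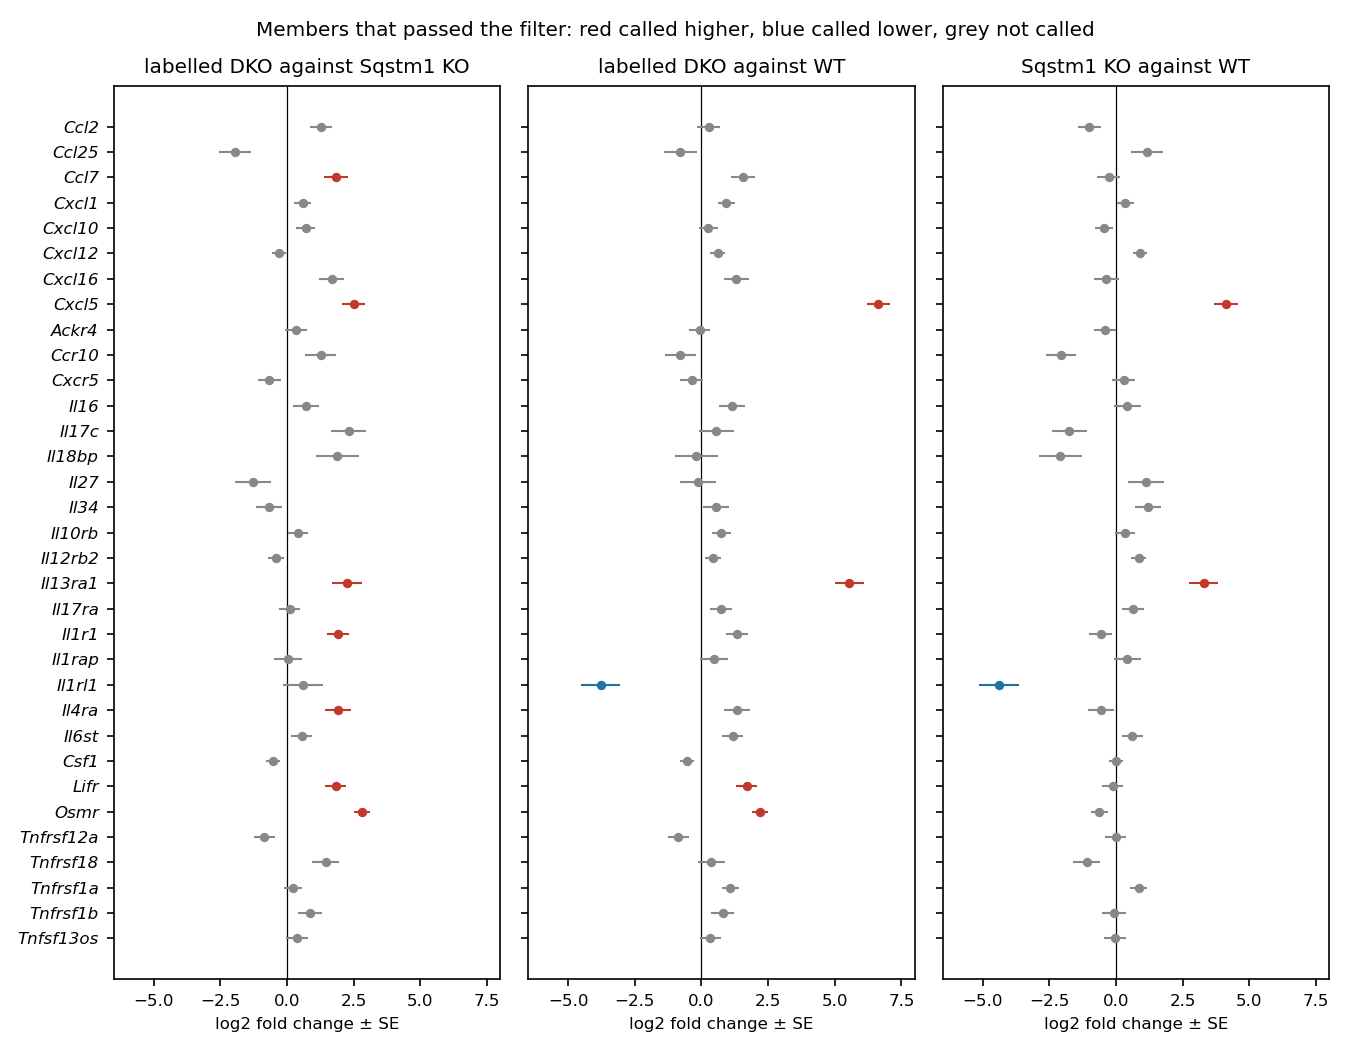
Each point is the log2 fold change of one of the 33 tested genes on the log2(normalized count + 1) scale, with the SE of the limma model, in the 3 comparisons; red points were called higher, blue lower and grey neither. In the left panel 7 points are red and 0 blue, and Cxcl5 reaches 6.64 in the middle panel.

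Over all 59 genes, filtered or not, every DKO-labelled value lay above every Sqstm1 KO value for 20 genes and below for 6, where 11.5% and 8.67% of all 14020 genes did so. Every DKO-labelled value lay above every WT value for 20 genes and below for 5, against 14.7% and 14.1% of all genes. Every Sqstm1 KO value lay above every WT value for 12 genes and below for 7, against 11.2% and 13.2% of all genes.

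Of the receptors of the IL-6 family, Osmr and Lifr rose in DKO-labelled libraries over both other groups. Osmr, the oncostatin M receptor subunit, had normalized counts of 102, 179 and 127 in DKO-labelled libraries, against 13.3, 18.7 and 22.8 in Sqstm1 KO and 27.2, 30.9 and 26.1 in WT. Its 3 DKO-labelled values stood above the 6 others, and the Sqstm1 KO values below those of WT. Osmr averaged 136 ± 39.2 in DKO-labelled libraries, against 18.2 ± 4.77 in Sqstm1 KO and 28.1 ± 2.51 in WT (SD, n = 3 each). It was 7.10-fold higher than in Sqstm1 KO (log2 fold change 2.83, SE 0.31, adjusted p = 5.8e-05 by limma) and 4.61-fold higher than in WT (2.21, SE 0.31, adjusted p = 0.000459), and both calls held in all 18 other settings tried. Between Sqstm1 KO and WT its log2 fold change was -0.62 (adjusted p = 0.285 by limma), so the order of those groups was not called.

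Lifr, the receptor subunit for leukemia inhibitory factor, lies next to Osmr on chromosome 15. It had 48.8, 82.2 and 57.3 in DKO-labelled libraries, against 27.6, 18.7 and 8.68 in Sqstm1 KO and 14.98, 20.3 and 19.4 in WT. The DKO-labelled values again lay above all others, while Sqstm1 KO and WT overlapped. Lifr rose 3.54-fold over Sqstm1 KO (log2 fold change 1.82, SE 0.39, adjusted p = 0.0123 by limma) and 3.26-fold over WT (1.71, SE 0.39, adjusted p = 0.0184). The call against Sqstm1 KO was lost without DKO-labelled replicate 2 (limma adjusted p = 0.0575) or 3 (0.051). The call against WT was lost without DKO-labelled replicate 2 (0.0676) or 3 (0.0672) and without WT replicate 1 (0.0792), 2 (0.0608) or 3 (0.0631).

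Il6st, which encodes the shared signalling subunit gp130, was the highest of the family, with 188, 210 and 159 in DKO-labelled libraries, against 165, 212 and 55.3 in Sqstm1 KO and 68.1, 86.6 and 90.4 in WT. Sqstm1 KO replicate 3 lay below the WT values, and the 5 other knock-out libraries above them. Its log2 fold change between DKO-labelled and WT libraries was 1.18 (SE 0.39), with a limma adjusted p of 0.0963 that missed the threshold. It was called in 3 of 18 other settings, which were DESeq2 (adjusted p = 0.0428), only the 6 libraries compared (0.00258) and leaving out Sqstm1 KO replicate 3 (0.00148). Il6ra, the subunit that binds IL-6 itself, overlaps Gm42809 and lay below the filter, with 2.87, 4.57 and 3.82 in DKO-labelled libraries, against 5.10, 6.49 and 15.2 in Sqstm1 KO and 8.17, 9.79 and 10.3 in WT. Its DKO-labelled values were the lowest of the 9, and it was not called without the filter.

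Il6, the ligand, also lay below the filter, which it missed through DKO-labelled replicate 2. It had 15.3, 9.13 and 16.6 in DKO-labelled libraries, against 1.02, 0.812 and 1.08 in Sqstm1 KO and 0, 0 and 0 in WT, from 40 reads in all. In each Sqstm1 KO library this is a single read. Against a floor of 3 counts over the WT group, it was at least 16.9-fold higher in DKO-labelled libraries, and with no filter limma gave an adjusted p of 0.0083 against Sqstm1 KO and 0.0008 against WT. Lif had 0.956, 3.42 and 8.92 in DKO-labelled libraries, against 5.10, 1.62 and 1.08 in Sqstm1 KO and 0, 2.26 and 0 in WT, which overlapped. Il11ra1, the IL-11 receptor subunit, shares exon sequence on opposite strands with its neighbour Ccl27a, and both lay below the filter with overlapping groups.

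**Figure D3:**
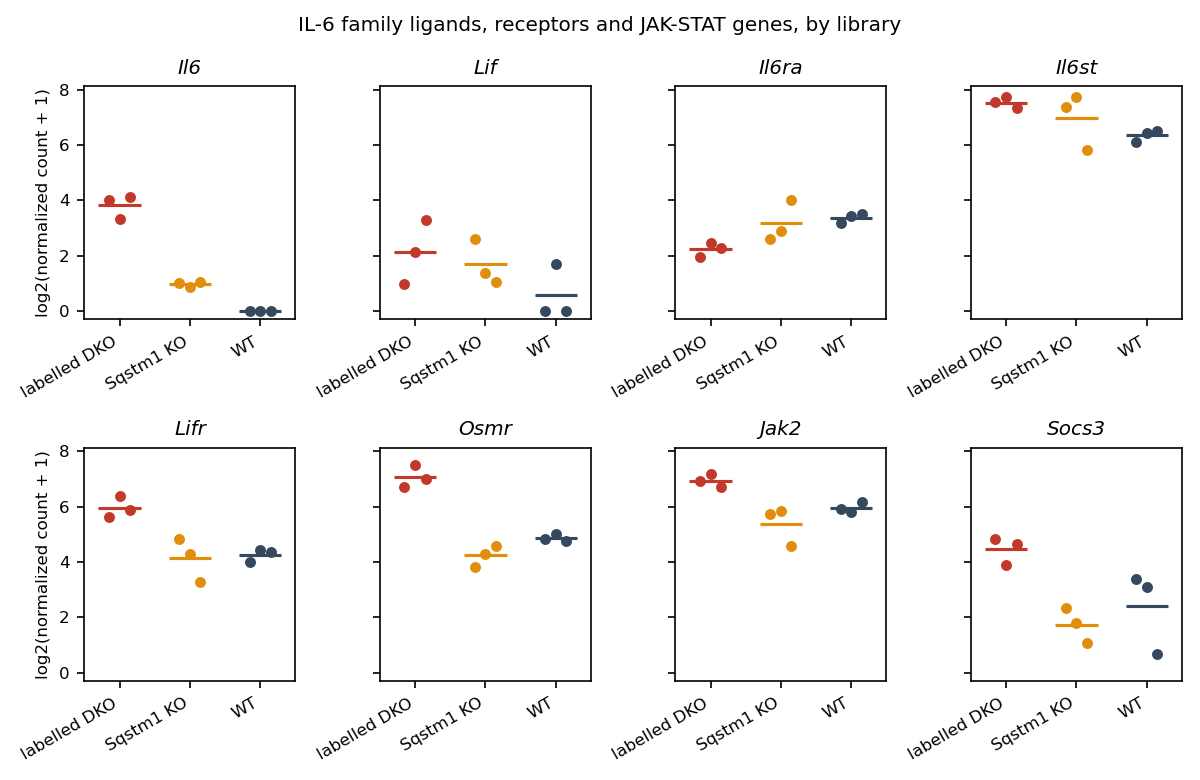
The vertical axis is log2(normalized count + 1), each point is a library and each bar the mean of the 3 libraries of a group. Osmr, Lifr and Jak2 show 3 labelled DKO points above all others, Il6 is at 0 in all WT libraries, and Il6ra has its lowest points in the labelled DKO group.

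The regions before the starts of 4 of these genes are printed as RefSeq gives them on GRCm38.p6, an earlier build than that of the deposited values, 250 bases each ending just before the annotated start, 5′ to 3′ on the strand of the gene. They were chosen after their values were seen. Osmr is shown as a receptor whose calls held in all settings, Il6 and Cxcl1 as ligands that hold a form of the kappa B motif, and Cxcl10 as one that holds the core of the interferon response element. Osmr is on the minus strand at chr15:6874314-6874563, Il6 on the plus strand at chr5:30012864-30013113, Cxcl1 on the plus strand at chr5:90890995-90891244 and Cxcl10 on the minus strand at chr5:92348890-92349139. Capitals mark matches, on either strand, to the kappa B form (GGG, any pair of bases, TTTCC) or to the interferon response core (GAAA, any pair of bases, GAAA), and no match printed here overlaps another.
Osmr: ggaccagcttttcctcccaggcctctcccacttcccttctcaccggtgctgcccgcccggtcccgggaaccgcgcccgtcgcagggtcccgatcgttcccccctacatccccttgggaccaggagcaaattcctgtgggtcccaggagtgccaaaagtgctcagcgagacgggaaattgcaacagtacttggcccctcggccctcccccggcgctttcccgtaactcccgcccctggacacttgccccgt
Il6: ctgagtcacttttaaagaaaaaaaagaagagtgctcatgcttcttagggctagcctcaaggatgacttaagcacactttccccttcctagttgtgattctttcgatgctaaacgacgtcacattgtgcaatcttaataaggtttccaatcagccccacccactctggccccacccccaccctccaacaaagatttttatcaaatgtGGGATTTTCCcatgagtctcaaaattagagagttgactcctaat
Cxcl1: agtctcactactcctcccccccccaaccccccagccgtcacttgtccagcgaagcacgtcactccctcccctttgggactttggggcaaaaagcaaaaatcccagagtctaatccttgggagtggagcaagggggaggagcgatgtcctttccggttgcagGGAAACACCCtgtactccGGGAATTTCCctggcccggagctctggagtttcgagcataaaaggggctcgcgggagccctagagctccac
Cxcl10: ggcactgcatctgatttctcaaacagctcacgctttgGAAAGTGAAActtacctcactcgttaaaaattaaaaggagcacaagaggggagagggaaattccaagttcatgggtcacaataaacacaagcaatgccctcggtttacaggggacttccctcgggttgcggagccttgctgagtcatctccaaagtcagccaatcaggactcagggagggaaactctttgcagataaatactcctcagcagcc

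Osmr held neither motif, and Cxcl10 held no match to this kappa B form. This says only that these letters are not in the windows, and other forms of the motifs were not searched. The Il6 match GGGATTTTCC starts 44 bases before the start, and Cxcl1 has matches at 89 (GGAAACACCC, on the opposite strand) and 71 bases before it (GGGAATTTCC). In windows that also took in the first bases of the transcript, 41 of the 59 genes had 51 annotated promoters, and the kappa B form was in 6 of the 51 (11.8%), against 1.63% of 32817 promoters of all genes. The other genes holding it were Csf1, Il16, Il17rc and Il4ra. The interferon response core was in 4 of the 51 (7.84%), against 3.43% of all promoters, with matches in Cxcl10, Il1rap, Tnfrsf14 and Tnfrsf1b. Of the genes called in any comparison, Il4ra held a match and Osmr, Lifr, Il13ra1, Il1r1 and Il1rl1 held none in these windows, while no promoter was matched for Cxcl5 and Ccl7.

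Among the chemokine ligands, Cxcl5 separated all 3 groups. Cxcl5 attracts neutrophils through the receptor Cxcr2, which had no values. It had 199, 166 and 176 in DKO-labelled libraries, against 18.4, 30.03 and 52.1 in Sqstm1 KO and 1.36, 1.51 and 0 in WT. No groups overlapped, and WT was close to 0. Cxcl5 averaged 180 ± 17.1 in DKO-labelled libraries, 33.5 ± 17.1 in Sqstm1 KO and 0.956 ± 0.831 in WT (SD, n = 3 each). It rose 5.69-fold over Sqstm1 KO (log2 fold change 2.51, SE 0.44, adjusted p = 0.00301 by limma) and by a log2 fold change of 6.64 over WT (SE 0.44, adjusted p = 9.08e-07), and Sqstm1 KO exceeded WT by 4.13 (SE 0.44, adjusted p = 6.61e-05). All 3 calls held in all 18 other settings.

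Cxcl1, another neutrophil chemokine, lies on the same stretch of chromosome 5, with Ppbp, Pf4, Cxcl3 and Cxcl15 between them. It had 56.4, 104 and 76.4 in DKO-labelled libraries, against 38.8, 60.1 and 54.2 in Sqstm1 KO and 31.3, 34.7 and 56.4 in WT. The lowest DKO-labelled and the highest WT value were equal at this precision, the Sqstm1 KO values overlapped both groups, and no comparison of Cxcl1 was called. Its log2 fold change against WT was 0.94 in DKO-labelled libraries (95% interval 0.25 to 1.63, limma adjusted p = 0.105).

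Ccl7, which attracts monocytes, had 27.7, 25.1 and 59.9 in DKO-labelled libraries, against 7.15, 6.49 and 15.2 in Sqstm1 KO and 9.53, 9.79 and 14.6 in WT. All DKO-labelled values exceeded all others, with replicate 3 more than the others of its group. Ccl7 rose 3.59-fold over Sqstm1 KO (log2 fold change 1.84, SE 0.44, limma adjusted p = 0.0235). That call was lost without DKO-labelled replicate 3 (limma adjusted p = 0.139) and without Sqstm1 KO replicate 1 (0.0704) or 2 (0.0767). It was also lost with only the 6 libraries compared (limma adjusted p = 0.0649). Against WT its log2 fold change was 1.56 (SE 0.44) with an adjusted p of 0.0503 by limma. It was called in 10 of 18 other settings, among them edgeR (adjusted p = 0.0271), DESeq2 (0.0153), TMM scaling (0.0484), the replicate block (0.0198) and leaving out Sqstm1 KO replicate 2 (0.047) or 3 (0.014). Its neighbour on chromosome 11, Ccl2, the main ligand of Ccr2, had 15.3, 22.8 and 22.9 in DKO-labelled libraries, against 8.17, 4.06 and 13.0 in Sqstm1 KO and 13.6, 15.8 and 20.6 in WT. Its Sqstm1 KO values were the lowest of the 9, and it was not called against either group (limma adjusted p = 0.112 for DKO-labelled against Sqstm1 KO).

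The T cell chemokines of the interferon response were low. Cxcl10, which overlaps Art3, had 22.9, 40.0 and 30.6 in DKO-labelled libraries, against 16.3, 16.2 and 22.8 in Sqstm1 KO and 17.7, 27.9 and 32.7 in WT, and was not called in any comparison. Cxcl11, annotated as a polymorphic pseudogene and overlapping Gm2673, had 16.3, 9.13 and 12.7 in DKO-labelled libraries, 0 in each Sqstm1 KO library and 4.09, 0 and 2.43 in WT. Its DKO-labelled values lay above all others, from 42 reads in all. With the Sqstm1 KO group set to 3 counts, Cxcl11 was at least 13.3-fold higher than in Sqstm1 KO, with an adjusted p of 0.00301 by limma with no filter.

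Cxcl12, which retains cells that carry Cxcr4, was the most abundant chemokine and had another order. It had 750, 851 and 786 in DKO-labelled libraries, against 775, 924 and 1290 in Sqstm1 KO and 483, 529 and 559 in WT. Both knock-out groups lay above WT and overlapped each other. Between Sqstm1 KO and WT its log2 fold change was 0.90 (SE 0.27, limma adjusted p = 0.0679), and between DKO-labelled and WT it was 0.60 (adjusted p = 0.210), so neither passed, while DESeq2 gave the first an adjusted p of 0.00563. Ackr3, an atypical receptor that takes up CXCL12, was below the filter with 8.61, 14.8 and 22.9 in DKO-labelled libraries, against 2.04, 3.25 and 7.59 in Sqstm1 KO and 0, 0.753 and 0 in WT. Its groups did not overlap and stood in the order of Cxcl5. With no filter, limma gave Ackr3 an adjusted p of 0.00166 between DKO-labelled and WT libraries.

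Cxcl16, a membrane-bound chemokine that overlaps Zmynd15, had 24.9, 12.6 and 31.8 in DKO-labelled libraries, against 7.15, 4.06 and 7.59 in Sqstm1 KO and 10.9, 9.79 and 4.85 in WT. Its DKO-labelled values lay above all others, with a limma adjusted p of 0.0561 against Sqstm1 KO that missed the threshold. Zmynd15 averaged 97.0 ± 17.9 in DKO-labelled libraries, against 40.5 ± 10.9 in Sqstm1 KO and 43.2 ± 11.3 in WT (SD, n = 3 each). These means were higher than those of Cxcl16 and in the same order, and whether Zmynd15 reads enter the Cxcl16 values was not tested. Cxcl16 was called in 5 of 17 other settings, among them edgeR (adjusted p = 0.0355), DESeq2 (0.0231) and leaving out DKO-labelled replicate 2 (0.0332) or Sqstm1 KO replicate 3 (0.0395). Its receptor gene Cxcr6 lay below the filter at 0 to 8.17 in all libraries. Ccl25, which overlaps Elavl1, was the ligand with the lowest fold change, at 4.78, 2.28 and 1.27 in DKO-labelled libraries, against 18.4, 8.12 and 13.0 in Sqstm1 KO and 10.9, 3.01 and 3.64 in WT. Its DKO-labelled values lay below those of Sqstm1 KO, with a log2 fold change of -1.95 and a limma adjusted p of 0.081.

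Of the chemokine receptors, Cxcr5, Ackr4 and Ccr10 had the highest means over the libraries, and none was called by limma in any comparison. Cxcr5, the receptor of B cell follicle homing, overlaps Bcl9l and had 22.0, 50.2 and 59.9 in DKO-labelled libraries, against 54.1, 39.0 and 127 in Sqstm1 KO and 58.6, 47.5 and 52.8 in WT. Ackr4, which overlaps Acad11, ranged over 14.8 to 44.0 in DKO-labelled libraries, against 18.4 to 25.5 in Sqstm1 KO and 19.4 to 40.9 in WT. Both overlapped between all groups. Ccr10 had 22.0, 14.8 and 12.7 in DKO-labelled libraries, against 21.4, 4.06 and 2.17 in Sqstm1 KO and 31.3, 27.9 and 27.3 in WT. All WT values of Ccr10 lay above the 6 others. Its log2 fold change between Sqstm1 KO and WT was -2.07 (SE 0.58, limma adjusted p = 0.0524), and it was called in 5 of 18 other settings, among them the replicate block (adjusted p = 0.0212) and leaving out Sqstm1 KO replicate 1 (0.00213), but not by edgeR or DESeq2.

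**Figure D4:**
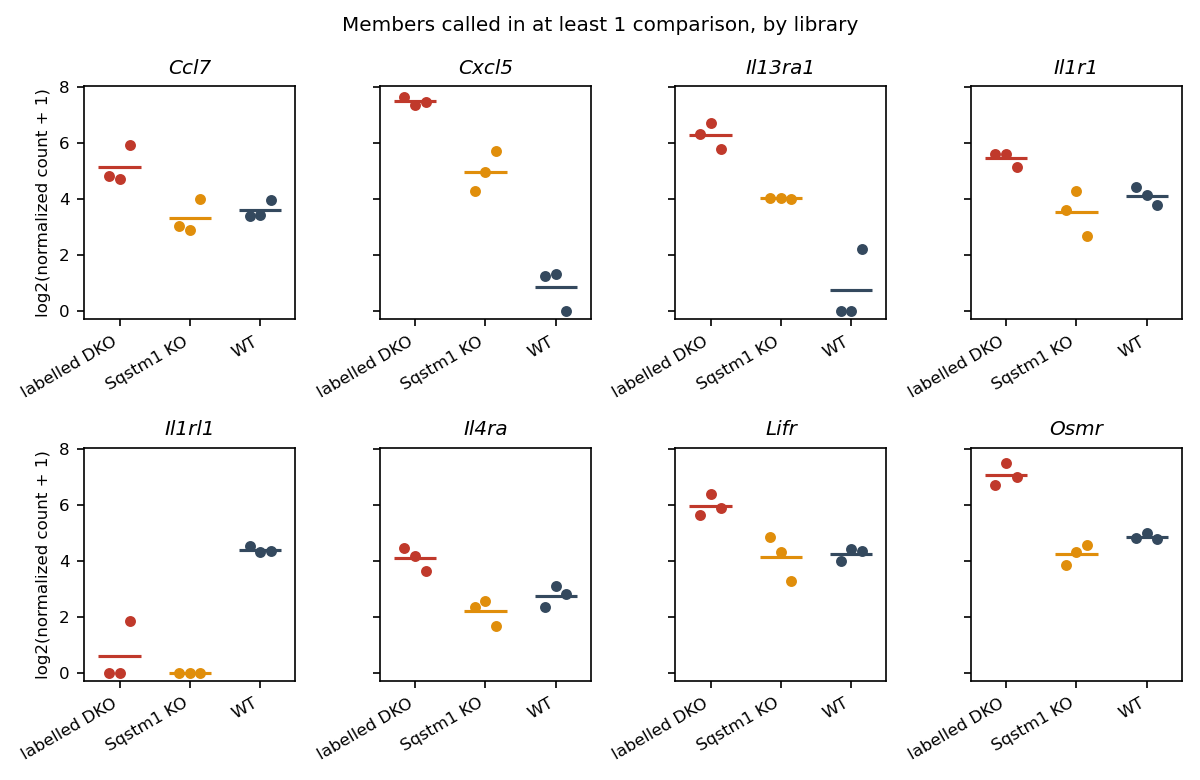
The 8 genes called in at least 1 comparison are drawn with log2(normalized count + 1) on the vertical axis, a point per library and a bar at the mean of each group. Cxcl5 and Il13ra1 step down through the 3 groups with no overlap, Il1rl1 is high only in WT, and the other 5 have their labelled DKO points above all others.

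Il13ra1 and Il4ra encode the subunits of the type II receptor for IL-4 and IL-13. Il13ra1, on chromosome X, had 80.3, 104 and 54.8 in DKO-labelled libraries, against 15.3, 15.4 and 15.2 in Sqstm1 KO and 0, 0 and 3.64 in WT. No groups overlapped. Il13ra1 averaged 79.7 ± 24.6 in DKO-labelled libraries, against 15.3 ± 0.118 in Sqstm1 KO and 1.21 ± 2.10 in WT (SD, n = 3 each). It rose 4.79-fold over Sqstm1 KO (log2 fold change 2.26, SE 0.55, limma adjusted p = 0.0255), by 5.55 on the log2 scale over WT (SE 0.55, adjusted p = 2.75e-05), and by 3.29 in Sqstm1 KO over WT (SE 0.55, adjusted p = 0.00253). The calls against WT held in all 18 other settings. The call between DKO-labelled and Sqstm1 KO libraries was lost without DKO-labelled replicate 1 (limma adjusted p = 0.0951), 2 (0.0962) or 3 (0.0594) and without Sqstm1 KO replicate 1 (0.0606) or 2 (0.0613).

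Il4ra, the subunit that pairs with Il13ra1, overlaps Gm44876. It had 21.0, 17.1 and 11.5 in DKO-labelled libraries, against 4.08, 4.87 and 2.17 in Sqstm1 KO and 4.09, 7.53 and 6.06 in WT. Only the DKO-labelled values reached the filter, so the gene was tested because of the group in which it is high. Il4ra rose 3.75-fold over Sqstm1 KO (log2 fold change 1.91, SE 0.49, limma adjusted p = 0.0337), a call lost in 9 of 17 other settings. Among these were leaving out DKO-labelled replicate 1 (limma adjusted p = 0.13), 2 (0.0842) or 3 (0.0559), Sqstm1 KO replicate 1 (0.0631) or 3 (0.0571), and WT replicate 2 (0.0609) or 3 (0.0594). Against WT its log2 fold change was 1.34 (adjusted p = 0.127 by limma).

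The IL-1 receptor genes of chromosome 1 lie in the order Il1r1, Il1rl2, Il1rl1, Il18r1 and Il18rap. Of these, Il1r1 rose in DKO-labelled libraries over Sqstm1 KO, while Il1rl1 fell against WT in both knock-out groups. Il1r1, the signalling receptor of IL-1, had 47.8, 47.9 and 34.4 in DKO-labelled libraries, against 11.2, 18.7 and 5.42 in Sqstm1 KO and 20.4, 16.6 and 12.7 in WT. The DKO-labelled values lay above all others, and Sqstm1 KO and WT overlapped. Il1r1 rose 3.80-fold over Sqstm1 KO (log2 fold change 1.92, SE 0.41, limma adjusted p = 0.0119), a call lost without DKO-labelled replicate 1 (0.0541). Against WT the log2 fold change was 1.34 (limma adjusted p = 0.0724), and it was called in 8 of 18 other settings, among them edgeR (adjusted p = 0.0349), DESeq2 (0.02), the replicate block (0.0401), only the 6 libraries compared (0.0114) and leaving out Sqstm1 KO replicate 2 (0.047) or 3 (0.0113).

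Il1rl1, which encodes ST2, the receptor of IL-33, had 0, 0 and 2.55 in DKO-labelled libraries, 0 in each Sqstm1 KO library and 21.8, 18.8 and 19.4 in WT. It had reads in all 3 WT libraries and in 1 of the 6 others. Only WT values reached the filter, so it too was tested because of the group in which it is high. Il1rl1 fell by 3.78 on the log2 scale in DKO-labelled libraries against WT (SE 0.74, limma adjusted p = 0.00682), a call lost without WT replicate 2 (0.0612) or 3 (0.059). Against a floor of 3 counts over the Sqstm1 KO group, Il1rl1 was at least 20.9-fold lower in Sqstm1 KO than in WT (limma adjusted p = 0.00272), and this call held in all 17 other settings. Il18rap, a subunit of the IL-18 receptor, was below the filter with 0 reads in all 6 knock-out libraries, against 6.81, 6.03 and 7.88 in WT. Against the floor it was at least 6.23-fold lower in DKO-labelled libraries and at least 7.21-fold lower in Sqstm1 KO than in WT, and limma with no filter gave an adjusted p of 0.0108 for DKO-labelled and of 0.0122 for Sqstm1 KO libraries. Il1rl2, between Il1r1 and Il1rl1, had 0 to 5.45 in all libraries with overlapping groups.

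**Figure D5:**
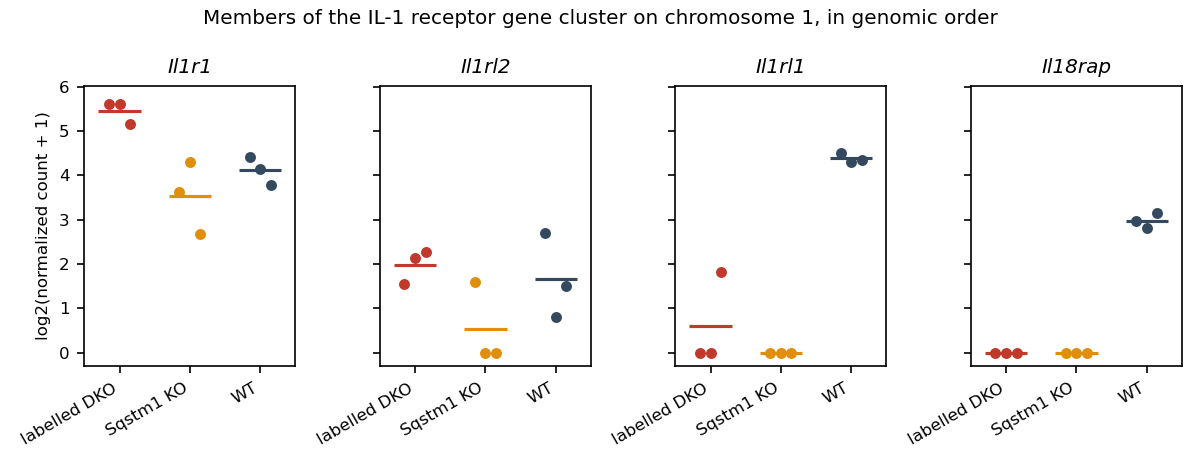
The 4 genes of the chromosome 1 cluster that had values are drawn in genomic order, with log2(normalized count + 1) on the vertical axis, a point per library and a bar at each group mean. Il1r1 is highest in the labelled DKO group, while Il1rl1 and Il18rap are highest in WT, where the values of Il18rap were 6.03 to 7.88 and those of the 6 knock-out libraries 0.

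Il33, the alarmin ligand of ST2, had reads mainly in DKO-labelled libraries, with 4.78, 20.5 and 10.2 in DKO-labelled libraries, 0 in each Sqstm1 KO library and 0, 0 and 0.606 in WT, from 32 reads. It lay below the filter. Il33 was at least 12.4-fold higher in DKO-labelled than in Sqstm1 KO libraries with the Sqstm1 KO group set to 3 counts, and limma with no filter gave adjusted p-values of 0.00568 against Sqstm1 KO and 0.0091 against WT. Il1rap, the co-receptor shared by IL-1 and IL-33 receptors, overlaps Gm20319 and had 7.64 to 14.8 in DKO-labelled libraries, against 5.10 to 14.6 in Sqstm1 KO and 4.09 to 11.5 in WT. Il1a, which encodes IL-1 alpha and overlaps Gm14023, had 3.42 to 12.4 in DKO-labelled libraries, against 2.43 to 9.19 in Sqstm1 KO and 6.78 to 10.9 in WT. The groups of Il1rap and of Il1a overlapped throughout.

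Of the interleukins and their antagonists, Il34, Il18bp and Il27 had the highest means, and each overlaps another gene: Gm15894, Numa1 and Apobr. Il34, a second ligand of the CSF1 receptor, had 16.3, 30.8 and 66.2 in DKO-labelled libraries, against 48.0, 28.4 and 103 in Sqstm1 KO and 20.4, 20.3 and 25.5 in WT. All Sqstm1 KO values of Il34 lay above those of WT, with a log2 fold change of 1.21 and a limma adjusted p of 0.192. Il18bp, the decoy of IL-18, had 29.6, 14.8 and 24.2 in DKO-labelled libraries, against 15.3, 13.8 and 0 in Sqstm1 KO and 35.4, 17.3 and 26.7 in WT. Il27 ranged over 5.09 to 13.4 in DKO-labelled libraries, against 13.3 to 33.6 in Sqstm1 KO and 2.43 to 28.6 in WT. Sqstm1 KO replicate 3 held the highest value of Il34 and of Il27 and the lowest of Il18bp, and no comparison of these genes was called. Il17c, an epithelial cytokine of the IL-17 family, had 16.3, 9.13 and 20.4 in DKO-labelled libraries, against 6.13, 3.25 and 0 in Sqstm1 KO and 12.3, 8.29 and 8.49 in WT. Its Sqstm1 KO values were the lowest of the 9, with a limma adjusted p of 0.0539 for DKO-labelled against Sqstm1 KO that missed the threshold. It was called in 6 of 17 other settings, among them DESeq2 (adjusted p = 0.0263), the replicate block (0.0438) and leaving out Sqstm1 KO replicate 1 (0.0217). Il21, which overlaps Gm12534, had 15 reads, all in DKO-labelled libraries, where its values were 4.78, 3.42 and 8.92. Against the floors it was at least 5.96-fold higher than in Sqstm1 KO and at least 7.06-fold higher than in WT.

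Il12rb2, a subunit of the IL-12 receptor, had the highest values of the interleukin receptors, with 425, 280 and 406 in DKO-labelled libraries, against 624, 374 and 487 in Sqstm1 KO and 364, 255 and 210 in WT. It overlaps exons of Serbp1, whose normalized counts averaged 501 ± 41.3 in DKO-labelled libraries, against 675 ± 171 in Sqstm1 KO and 332 ± 20.7 in WT (SD, n = 3 each). Both genes were thus highest in Sqstm1 KO and lowest in WT, and Il12rb2 was not called. Il10rb, shared by receptors of the IL-10 family, and Il17ra, a subunit of the IL-17 receptor, had all DKO-labelled values above all WT values. Il10rb ranged over 17.8 to 28.5 in DKO-labelled libraries, against 12.3 to 19.5 in Sqstm1 KO and 9.53 to 15.2 in WT. Il17ra ranged over 12.6 to 18.2 in DKO-labelled libraries, against 11.4 to 21.7 in Sqstm1 KO and 6.78 to 12.3 in WT. Neither was called. Il17rc, the partner of Il17ra, lay below the filter at 1.27 to 5.71 in DKO-labelled libraries, 6.13 to 11.9 in Sqstm1 KO and 1.36 to 5.27 in WT, so that all its Sqstm1 KO values were above the others.

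Csf1, the growth factor of macrophages, had 69.8, 99.3 and 71.3 in DKO-labelled libraries, against 112, 135 and 97.6 in Sqstm1 KO and 92.6, 122 and 133 in WT. Its groups overlapped, and its log2 fold change between DKO-labelled and Sqstm1 KO libraries was -0.52 (95% interval -1.08 to 0.04, limma adjusted p = 0.303). Csf1r, the receptor and a macrophage marker, overlaps Hmgxb3 and lay at 0 to 6.37 in all 9 libraries. Csf2ra, the GM-CSF receptor subunit, had 5.74, 10.3 and 6.37 in DKO-labelled libraries, 0 in each Sqstm1 KO library and 0, 0 and 2.43 in WT. It was at least 7.79-fold higher than in Sqstm1 KO with that group set to 3 counts, from 24 reads, and had limma adjusted p-values, with no filter, of 0.0154 against Sqstm1 KO and 0.0498 against WT. Of the genes at 0 in each Sqstm1 KO library, Cxcl11, Il33, Il21 and Csf2ra had DKO-labelled values above all WT values as well. The others, Il1rl1 and Il18rap, had DKO-labelled values below all WT values.

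None of the 4 tested TNF receptors was called in any comparison by limma. Tnfrsf18, which encodes GITR and overlaps Gm16008, had 135, 83.3 and 115 in DKO-labelled libraries, against 74.5, 58.4 and 13.0 in Sqstm1 KO and 123, 88.1 and 55.8 in WT. Tnfrsf1a, the main TNF receptor, had 44.0, 46.8 and 26.7 in DKO-labelled libraries, against 29.6, 31.7 and 35.8 in Sqstm1 KO and 13.6, 18.1 and 21.2 in WT. Both knock-out groups lay above WT for Tnfrsf1a, with a log2 fold change of 1.09 between DKO-labelled and WT libraries (SE 0.32, limma adjusted p = 0.0623). It was called in 4 of 18 other settings, among them DESeq2 (adjusted p = 0.0486) and leaving out Sqstm1 KO replicate 3 (0.028). Tnfrsf12a, the receptor of TWEAK, had 5.74, 14.8 and 14.0 in DKO-labelled libraries, against 22.5, 23.5 and 15.2 in Sqstm1 KO and 17.7, 20.3 and 23.0 in WT. Its DKO-labelled values lay below the 6 others (adjusted p = 0.275 against Sqstm1 KO and 0.235 against WT by limma). Tnfsf12, which encodes TWEAK, and Tnfsf9, which overlaps Gm11110, lay below the filter at 0 to 8.61 and 0 to 14.8 over the 9 libraries. Tnfrsf22 and Tnfrsf23, neighbouring decoy receptors of TRAIL on chromosome 7 of the mouse, both lay below the filter with all Sqstm1 KO values above all others. Tnfrsf22 ranged over 0 to 3.82 in DKO-labelled libraries, 4.34 to 8.17 in Sqstm1 KO and 0 to 3.64 in WT. Tnfrsf23, which overlaps E230032D23Rik, ranged over 4.57 to 8.61 in DKO-labelled libraries, 9.19 to 15.2 in Sqstm1 KO and 4.09 to 6.67 in WT. They are close copies of each other, so reads could be split between them, and both values are uncertain. Tnfrsf10b, the TRAIL receptor that signals death, had 3.82 to 11.4 in DKO-labelled libraries, against 4.08 to 8.68 in Sqstm1 KO and 5.46 to 6.81 in WT.

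The remaining genes were low or overlapped between groups. Tnfrsf1b, the second TNF receptor, had 22.9, 21.7 and 15.3 in DKO-labelled libraries, against 12.3, 8.12 and 10.8 in Sqstm1 KO and 5.45, 12.8 and 18.2 in WT. Its DKO-labelled values lay above those of Sqstm1 KO and overlapped WT (limma adjusted p = 0.310 against Sqstm1 KO). Tnfrsf14, which encodes HVEM, lay below the filter at 3.82, 7.99 and 14.0 in DKO-labelled libraries, against 1.02, 1.62 and 0 in Sqstm1 KO and 0, 3.77 and 5.46 in WT. Its DKO-labelled and Sqstm1 KO values did not overlap, and it was not called with no filter. Il16, which overlaps Stard5, ranged over 11.5 to 21.0 in DKO-labelled libraries, 5.68 to 11.9 in Sqstm1 KO and 3.64 to 12.3 in WT. The antisense RNA Tnfsf13os, whose reads cannot be told apart from those of Tnfsf13, ranged over 26.3 to 75.5 in DKO-labelled libraries, 30.8 to 37.8 in Sqstm1 KO and 20.6 to 53.1 in WT. Neither was called in any comparison. Il7, a growth factor of lymphocytes that overlaps Gm16685, lay below the filter at 0 to 3.42 in DKO-labelled libraries, 2.04 to 4.34 in Sqstm1 KO and 0.753 to 1.82 in WT, with all Sqstm1 KO values above those of WT. Ccl28, Il17d and Ccr9, which overlaps Slc6a20a, lay below the filter with groups that overlapped in all comparisons. Partners that the symbols would have matched, among them Ccr2, Cxcr2, Cxcr3, Cxcr4, Cxcl2, Cxcl9, Il1b, Il11, Il15 and Tnfsf10, had no values.

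The genes that carry these signals inside the cell were read from a list of 53 JAK, STAT, SOCS, TRAF, IRAK and related genes, of which 48 had values and 36 were tested. Between DKO-labelled and Sqstm1 KO libraries 5 rose, among them Stat2, Jak2, Irak3 and Socs3, and 0 fell by limma. Of all tested genes, 4.42% rose and 1.51% fell. The median log2 fold change was 0.04 over the 36 genes and -0.01 over all tested genes. At an unadjusted p under 0.05 by limma were 8 of the 36, and 1905 of all 10118 tested genes. In the count tests, edgeR and DESeq2 each called 5 higher and 0 lower. Without DKO-labelled replicate 1 or DKO-labelled replicate 3, the limma count of higher genes was 3. Jak2, a kinase bound to gp130, had 120, 143 and 103 in DKO-labelled libraries, against 52.1, 56.8 and 22.8 in Sqstm1 KO and 58.6, 55.0 and 70.9 in WT. Its DKO-labelled values stood above all others, with a log2 fold change over Sqstm1 KO of 1.54 (SE 0.33, limma adjusted p = 0.0116), while that over WT was 0.97 (adjusted p = 0.103). Socs3, the feedback inhibitor of gp130 signalling, is described after its values were seen and had 27.7, 13.7 and 24.2 in DKO-labelled libraries, against 4.08, 2.43 and 1.08 in Sqstm1 KO and 9.53, 7.53 and 0.606 in WT. It too was highest in all DKO-labelled libraries, with a log2 fold change over Sqstm1 KO of 2.73 (SE 0.69, limma adjusted p = 0.0316). This call was lost without DKO-labelled replicate 1 (0.129) or 3 (0.128) or Sqstm1 KO replicate 2 (0.0654), and with quantile scaling (0.0537). Stat3, the main STAT of this family, overlaps Stat5a and had a log2 fold change of 0.77 over Sqstm1 KO (SE 0.31, limma adjusted p = 0.203).

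Stat2, a STAT of interferon signalling, had another order. It had 35.4, 74.2 and 53.5 in DKO-labelled libraries, against 7.15, 13.0 and 5.42 in Sqstm1 KO and 38.1, 53.5 and 62.5 in WT. Its Sqstm1 KO values lay below all others, and the DKO-labelled and WT values overlapped. Stat2 averaged 54.4 ± 19.4 in DKO-labelled libraries, against 8.52 ± 3.96 in Sqstm1 KO and 51.4 ± 12.3 in WT (SD, n = 3 each). It rose by 2.56 on the log2 scale in DKO-labelled over Sqstm1 KO libraries (SE 0.38, limma adjusted p = 0.000872), and this call and that between Sqstm1 KO and WT held in all 18 other settings tried. Between Sqstm1 KO and WT 3 of the 36 genes fell, among them Stat2 and Irak3, and 0 rose by limma, where 3.18% of all tested genes fell and 2.43% rose. The median log2 fold change was -0.32 over the 36 genes and -0.01 over all tested genes. Of the 36, 6 had an unadjusted p under 0.05 by limma, as had 1959 of all 10118 tested genes. Both edgeR and DESeq2 also called 3 lower and 0 higher. Without WT replicate 2 or WT replicate 3 the limma count of lower genes was 1. Stat2 fell by 2.51 on the log2 scale (SE 0.38, limma adjusted p = 0.00131). Irak3, an inhibitor of IL-1 receptor signalling that overlaps Gm47009 and Tmbim4, had 17.2, 13.7 and 21.7 in DKO-labelled libraries, against 4.08, 4.06 and 0 in Sqstm1 KO and 24.5, 13.6 and 13.9 in WT. Its call over Sqstm1 KO (limma adjusted p = 0.0181) was lost without DKO-labelled replicate 1 (0.0624) or 3 (0.0925), and its fall against WT (0.0213) without WT replicate 1 (0.12), 2 (0.067) or 3 (0.0647). With only the 6 libraries compared, both were lost as well (limma adjusted p = 0.0709 over Sqstm1 KO and 0.0622 against WT). Between DKO-labelled and WT libraries 0 of the 36 genes were called higher and 0 lower by limma, where 4.11% and 2.31% of all tested genes were. An unadjusted p under 0.05 by limma was reached by 9 of the 36 and by 2169 of all 10118 tested genes. DESeq2 called 2 higher there and edgeR 0, and without Sqstm1 KO replicate 3 the limma counts were 2 higher and 3 lower.

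Of 46 further cytokine and receptor genes with other symbols, 19 had values and 10 were tested. Kitl, which encodes stem cell factor, had 49.7, 57.1 and 43.3 in DKO-labelled libraries, against 16.3, 18.7 and 30.4 in Sqstm1 KO and 19.1, 22.6 and 17.6 in WT. It rose over Sqstm1 KO (log2 fold change 1.20, SE 0.32, adjusted p = 0.0401 by limma) and over WT (1.30, SE 0.32, adjusted p = 0.0255), its DKO-labelled values being above all others. Ghr, the growth hormone receptor, fell in DKO-labelled libraries to 12.4, 35.4 and 20.4, against 52.1, 82.8 and 77.0 in Sqstm1 KO and 54.5, 52.0 and 49.7 in WT. Its log2 fold change was -1.68 against Sqstm1 KO (SE 0.35, limma adjusted p = 0.00999) and -1.28 against WT (SE 0.35, adjusted p = 0.044). Ifnar2, an interferon receptor subunit, was called between DKO-labelled and WT libraries, with 56.4, 42.2 and 43.3 in DKO-labelled libraries, against 22.5, 31.7 and 52.1 in Sqstm1 KO and 14.98, 21.1 and 17.0 in WT (log2 fold change 1.37, SE 0.34, limma adjusted p = 0.0266). The call of Kitl against Sqstm1 KO was lost on leaving out any library but Sqstm1 KO replicate 3 (limma adjusted p up to 0.124). It was also lost with only the 6 libraries compared (limma adjusted p = 0.106). Those of Kitl, Ifnar2 and Ghr against WT were lost on leaving out DKO-labelled replicate 1 or 3 or any WT library (limma adjusted p up to 0.115, 0.104 and 0.161), Kitl also without DKO-labelled replicate 2 (0.0737). Between Sqstm1 KO and WT, 0 of the 10 genes were called by limma, edgeR or DESeq2, where limma called 5.61% of all tested genes. An unadjusted p under 0.05 by limma was reached by 3 of the 10 and by 1959 of all 10118 tested genes.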

How the data were processed

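RNA of 9 libraries of cultured mouse hepatic stellate cells was analysed from 1 deposited table of 14020 genes, with 0 columns left unused. The deposited signal values are normalized counts: reads per gene, which the authors scaled by a size factor of each library. STAR, DESeq2 and the build GRCm39 were used, per the submitters' processing notes. The strandedness, the counter and the annotation are not given in the sources used. In 100% of the 121126 values above 0, the value was a whole multiple of the smallest in its library, within 0.01, and reads were recovered from this. Totals of 819677 to 1467793 reads limit the precision of low genes. A group with no read was set to 3 counts over its libraries for a bound, which covers counting error only.

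The 10118 genes that reached 10 in 3 or more libraries were tested with limma 3.58.1 in R 4.3.3, with a mean-variance trend, on log2(value + 1), over all 9 libraries in 3 groups, in 3 comparisons. Tests were two-sided, and Benjamini-Hochberg adjusted p-values under 0.05 were called. Replicates were as labelled. The alternatives were pseudocount 5, no filter, a value of at least 20, TMM and quantile scaling, a replicate block, only the 6 libraries compared, edgeR 4.0.16, DESeq2 1.42.0 and leaving out each library. The count tests called, among the genes of the set, 8 (edgeR) and 9 (DESeq2) between DKO-labelled and Sqstm1 KO libraries. The scripts were tested on simulated data. The gene set and the lists were chosen with earlier results of these data known. Named are the genes called in any comparison, the 3 of highest mean in each class, ligand and receptor pairs, at most 4 called genes per list and comparison, and Sqstm1 and Nbr1; others were named after their values were seen. A gene of the signalling list is counted with its list but not reported here. Names, gene neighbours, overlaps and exon lengths came from GENCODE release M21 and RefSeq on GRCm38, with 88.3% of the genes matched by name, and no coordinate was carried between builds.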

Additional observations from a re-analysis of the deposited data

How the results depend on the processing

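Between DKO-labelled and Sqstm1 KO libraries, the count of higher genes was 7 and became 13 with no filter, where low genes enter, and ranged over 3 to 8 when a library was left out. The count of lower genes was 0 and became 1 with the replicate block (0 to 0 when a library was left out). Between DKO-labelled and WT libraries, 4 higher genes became 9 with no filter, 7 with quantile scaling, 8 with only the 6 libraries compared and 8 with DESeq2, ranging over 3 to 9 when a library was left out. The 1 lower gene became 2 with no filter and 0 with a filter at 20, ranging over 0 to 1. Between Sqstm1 KO and WT, 2 higher genes ranged over 2 to 3. The 1 lower gene there became 2 with pseudocount 5, 3 with no filter, 0 with a filter at 20, 2 with quantile scaling and 2 with the block, ranging over 1 to 2. In alternatives chosen after seeing the data, counting only genes that reach the filter value in more than 1 group gave 0 lower genes against WT in both comparisons, since Il1rl1 drops out. Counting only genes with no overlap on the opposite strand gave 6 higher between DKO-labelled and Sqstm1 KO libraries. Other alternatives for these counts stayed within 1.5 times. The cause was not tested except where the setting removes or adds genes by construction.

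Replicate numbers were used as a block for comparison only. Deviations of same-numbered libraries had correlations from -0.115 to 0.178, all positive but that of DKO-labelled and WT replicate 3. Libraries with different numbers had correlations from -0.258 to 0.261. Whether same numbers stand for a shared batch is not given in the sources used and was not tested. With the block, 9 genes were higher and 1 lower between DKO-labelled and Sqstm1 KO libraries, 6 and 1 between DKO-labelled and WT, and 2 and 2 between Sqstm1 KO and WT. Over all tested genes, leaving out a library gave 218 to 799 higher calls between DKO-labelled and WT libraries (416 with all libraries) and 76 to 610 lower ones (234). The log2 fold change of Sqstm1 between DKO-labelled and Sqstm1 KO libraries, -0.15, reversed to 0.21 without DKO-labelled replicate 1 and to 0.27 without Sqstm1 KO replicate 3, in a range of -0.46 to 0.27 over the libraries left out. Genes under about 10 normalized counts rest on few reads.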
